A study of Mus musculus with 19 samples.

Results

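3T3-L1 is a mouse fibroblast line whose confluent cells turn into fat cells after a hormone cocktail. Its first 2 days of differentiation were examined here on 4 arrays, 2 titled WT 3T3-L1 on day 0 and 2 titled WT 3T3-L1 on day 2, of 19 arrays in the series. Genes were all those whose array row carried exactly 1 gene symbol, 22180 genes in all. The wild-type cells are the parental line and carry no MED1 deletion. The comparison line is MED1-KO 3T3-L1, with 2 arrays of RNA on day 0 and 2 on day 2. Its response is set beside that of the parental cells, and its arrays also enter the estimate of spread behind the wild-type test. These knockout arrays hold pooled RNA from individual clones made with CRISPR/Cas9, so their spread is not that of single clones. MED1 is a subunit of Mediator, the bridge between DNA-bound factors and the polymerase, and the study asked which early adipogenic events depend on it. The labels do not say what the hormone cocktail held.

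In the textbook account of this line, the cocktail holds insulin, a glucocorticoid and an agent that raises cAMP. The early factors C/EBPβ and C/EBPδ appear first, the cells divide again in what is called mitotic clonal expansion, and PPARγ and C/EBPα then switch on the genes of the fat cell. The cells give up their fibroblast matrix and stretched shape over the same period.

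The labels of the arrays disagree on the day. The title was used throughout. The source and description fields instead place day 2 replicate 1 before the hormones and day 0 replicate 2 at 2 days after them, so that the day by those fields is the same as the replicate number. Title and source give the same day for only 2 wild-type arrays, day 0 replicate 1 and day 2 replicate 2. With the day taken from the source field, no gene was called by limma. An unadjusted limma p below 0.05 was then found for 650 genes, a share of all genes smaller than 0.05 itself. The first principal component over the 8 cell arrays held 53.7% of the variance. It ran from -31.6 to -24.5 on the 4 arrays titled day 0 and from 23.7 to 30.8 on the 4 titled day 2. The third component, with 10.6% of the variance, was above 0 on all 4 arrays of replicate 1 (2.9 to 18.1) and below 0 on all 4 of replicate 2 (-17.1 to -4.7), the split that the source field makes. The correlation over all genes was 0.9915 between the day 0 arrays, 0.9895 between the day 2 arrays, and 0.9744 to 0.9766 between wild-type arrays of different title days.

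Levels are log2 signals after robust multi-array averaging (RMA), and a change is the mean of day 2 minus that of day 0 on this scale, given with limma's moderated standard error. That error comes from a fit of 8 arrays, the knockout arrays included, and not from the wild-type arrays alone. A gene was called when limma's Benjamini-Hochberg adjusted p over all 22180 genes was below 0.05. By that rule 2012 genes were called, 9.07 percent of those tested. Of these, 762 were higher on day 2 (3.44 percent of all genes) and 1250 were lower (5.64 percent). At least 2-fold changes were seen for 244 of the higher and 430 of the lower genes, and at least 4-fold changes for 42 and 88. With quantile normalization of the 8 cell arrays, 874 genes were called higher and 1114 lower. The arrays of the 2 days did not overlap for 10805 genes, 48.7 percent, and for all 2012 called genes. The difference between the 2 arrays whose labels agree was at least 2-fold for 691 of the called genes. Left-out arrays changed the count. It was 1265 without day 0 replicate 1, 1143 without day 0 replicate 2, 1596 without day 2 replicate 1 and 1249 without day 2 replicate 2. With the 4 wild-type arrays alone it was 1367. For a gene with several array rows the brightest was used, and a change over the mean of its rows is given where it ends a call or differs by over 1.5 times. Separate cultures are not stated for the replicates, so the spread behind each p-value may be technical. Where every array of a day lay below its own lower quartile (3.74 to 3.83), the gene is called dim on that day and its fold is a lower bound.

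The cells carried the markers of fibroblasts. The mean level of 7 fibroblast and preadipocyte markers was 10.25 and 10.06 on day 0 and 9.44 and 9.38 on day 2, and 4 of the 7 were called lower. Of 6 adipocyte markers, Fabp4, Plin1, Cidec and Pparg were called higher and Adipoq and Lpl were not called, and their mean level was 5.41 and 5.16 on day 0 and 6.69 and 6.54 on day 2. None of 26 markers of macrophages, endothelium, skeletal muscle, bone and cartilage, or epithelium was called in either direction. The mean level of the 6 macrophage markers was 4.14 to 4.37 over the 4 arrays, and 3 of the 6, the leukocyte gene Ptprc among them, were dim on both days. In these bulk cultures, more cells of a kind and more RNA per cell cannot be told apart.

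Some factors of the early wave of adipogenesis rose by day 2. Of 14 measured, 6 were called higher and 1 lower, and their median change was 0.78 beside 0.033 over all genes. Cebpd, which encodes C/EBPδ, read 5.30 and 5.03 on day 0 and 8.20 and 7.69 on day 2, a rise of 2.78 ± 0.21 (adjusted p = 9.71e-05). Cebpb, which encodes C/EBPβ, read 7.21 on both day 0 arrays and 8.86 and 9.24 on day 2, a 3.57-fold rise (adjusted p = 0.000106). Both day 2 arrays stood well above both day 0 arrays for each gene, and the gap was many times the distance between replicates. Klf5, a Krüppel-like factor that acts after the early C/EBPs, rose by 2.69 ± 0.17, from 5.56 and 5.83 to 8.55 and 8.21. Zbtb16, a zinc finger factor that is also a classical glucocorticoid target, rose by 2.66 ± 0.18, from 4.90 and 4.73 to 7.62 and 7.33. Stat5a, which relays growth hormone and prolactin signals, rose by 1.47 ± 0.14, and its relative Stat5b changed by 0.60 ± 0.26 without a call (adjusted p = 0.22). Nfil3, a basic leucine zipper factor, rose by 1.80 ± 0.33, but its day 2 arrays lay apart at 8.46 and 7.70. Its call was lost without day 2 replicate 1 (1.42) or day 0 replicate 2 (1.67).

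Several other early factors were not called. Egr2, an immediate early zinc finger gene that acts upstream of Cebpb, read 6.57 and 6.11 on day 0 and 7.38 and 5.68 on day 2, so its 2 day 2 arrays lay on either side of day 0. Klf4, placed in the same step, changed by -0.14 ± 0.27, and Creb1, the cAMP response factor, by 0.03 ± 0.12. Fosl2, a subunit of AP-1, changed by 0.80 ± 0.26 (adjusted p = 0.101), and Klf9, a glucocorticoid target, by 0.75 ± 0.22 (adjusted p = 0.0669). Klf15 read 3.61 to 3.98 over the 4 arrays. The called fall in this group was that of Nr3c1, the glucocorticoid receptor itself, which read 8.91 and 8.90 on day 0 and 8.08 and 8.10 on day 2, a change of -0.82 ± 0.13 (adjusted p = 0.00501).

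Some genes in the list of late factors had begun to move. Of 12 measured, 5 were called higher and 1 lower, with a median change of 0.32. The list also holds Ebf2, a factor of fat precursors, and Ppargc1a, so these counts are not of late factors alone. Pparg, the nuclear receptor that directs fat cell formation, read 5.93 and 5.76 on day 0 and 7.94 and 7.80 on day 2, a 4.06-fold rise (2.02 ± 0.13, adjusted p = 4.01e-05). Cebpa, its partner C/EBPα, went from 5.53 and 5.46 to 7.17 and 7.18, a 3.21-fold rise. Rxra, the receptor with which PPARγ pairs, rose by 1.25 ± 0.14. In these 3 genes the replicates lay close together and the days far apart. Srebf1, the regulator of fatty acid synthesis genes, rose by 1.12 ± 0.25, and Ebf2, an early B-cell factor of fat precursors, by 0.59 ± 0.12. Both calls were lost without 1 array: that of Srebf1 at 1.27 without day 0 replicate 1, 0.98 without day 0 replicate 2 and 0.90 without day 2 replicate 1, and that of Ebf2 at 0.61, 0.57 and 0.56 without the same arrays. Over the mean of its rows, Ebf2 changed by 0.29 and was not called. Ppargc1a, the coactivator of mitochondrial genes, read 5.67 and 6.26 on day 0 and 4.89 and 4.60 on day 2, a change of -1.22 ± 0.24. Its call was lost without day 0 replicate 2 (-0.92) or day 2 replicate 2 (-1.08). Ebf1, Zfp423, Prdm16, Mlxipl, Rxrg and Nr1h3 were not called, with changes from -0.33 to 0.32.

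**Figure D1:**
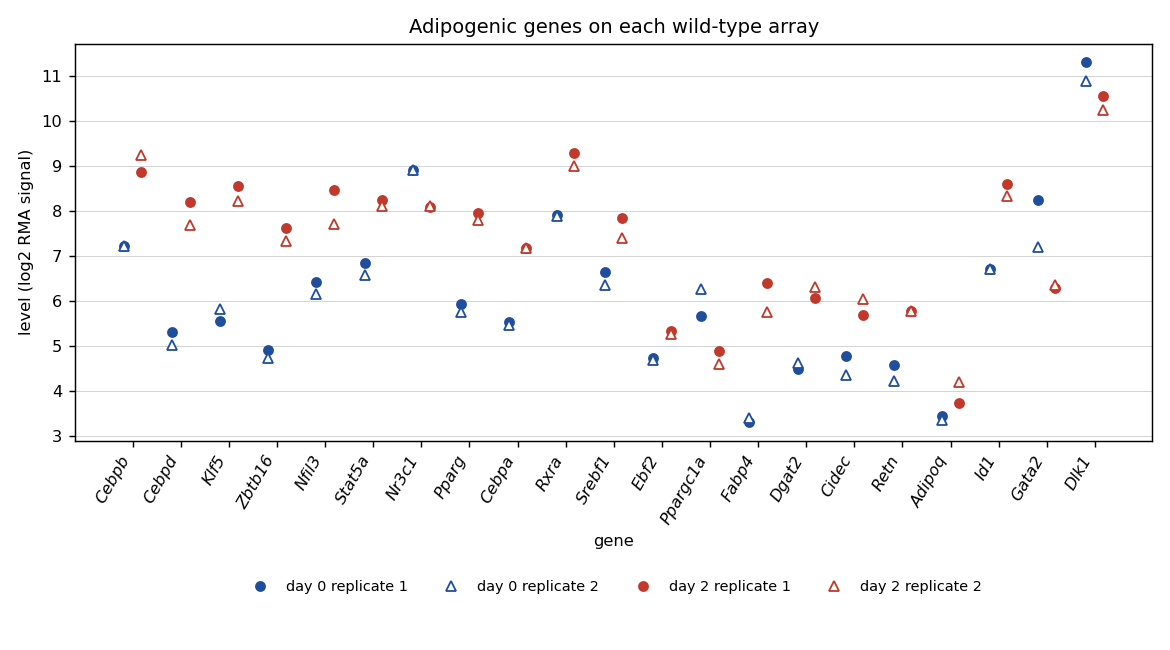
Level of 21 adipogenic genes (log2 RMA signal, vertical axis) on each wild-type array, with day 0 in blue, day 2 in red, circles for replicate 1 and triangles for replicate 2. Pparg and Cebpa lie 2.02 and 1.68 higher on day 2 with close replicates, while the Dlk1 arrays lie 0.70 lower and the day 0 arrays of Gata2 stand apart at 8.24 and 7.21.

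Genes listed here as brakes on adipogenesis moved both ways. The part that each member plays in these cells was not tested, and not every member need be a brake. Of 27 measured, 5 were called higher and 6 lower, and the median change was 0.01. The inhibitors of DNA binding were higher: Id1 read 6.71 on both day 0 arrays and 8.60 and 8.34 on day 2 (3.39-fold), Id3 rose by 1.36 ± 0.22, and Id2 rose by 1.12 ± 0.21. These small proteins bind and block helix-loop-helix factors. Sox9 and Hes1, factors of undifferentiated cells, rose by 0.68 ± 0.14 and 0.66 ± 0.17. Gata2, a zinc finger factor of preadipocytes, fell by 1.40 ± 0.29, from 8.24 and 7.21 to 6.29 and 6.36. Its relative Gata3 changed by 0.02 ± 0.15. Ddit3, which encodes the C/EBP antagonist CHOP, fell from 7.65 and 7.66 to 6.51 and 6.63. Klf7 and Twist1, further factors of the preadipocyte, fell by 1.02 ± 0.20 and 0.76 ± 0.19. Dlk1, the preadipocyte surface protein Pref-1, changed by -0.70 ± 0.21 without a call (adjusted p = 0.0783), and its arrays did not overlap, at 11.30 and 10.87 against 10.54 and 10.23. Without 1 wild-type array the called members numbered 2 to 4 higher and 1 to 5 lower. The call of Id2 was lost without day 0 replicate 1 (1.07) or day 2 replicate 1 (0.91), that of Sox9 without day 0 replicate 2 (0.57) or day 2 replicate 1 (0.55), and that of Hes1 without any 1 of them (0.51 to 0.81). The change of Gata2 was -0.89 without day 0 replicate 1. The call of Gata2 was lost without day 2 replicate 1 (-1.37) or day 2 replicate 2 (-1.44), that of Klf7 without day 0 replicate 1 (-0.85) or day 2 replicate 2 (-0.90), and that of Twist1 without day 0 replicate 1 (-0.57), day 2 replicate 1 (-0.64) or day 2 replicate 2 (-0.89). Med1 itself read 8.23 and 8.48 on day 0 and 8.55 and 8.28 on day 2 in wild-type cells, a change of 0.06 ± 0.15. It read 7.0 to 7.16 on the 4 knockout arrays, below every wild-type array.

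Genes of the lipid droplet and of triglyceride handling were partly on. Of 24 measured, 8 were called higher and 2 lower, with a median change of 0.29 and without any 1 wild-type array 5 to 7 higher and 0 to 1 lower. Fabp4, the fatty acid carrier of fat cells, was dim on day 0 at 3.30 and 3.40 and read 6.40 and 5.77 on day 2, at least 4.99-fold higher. Dgat2, which makes triglyceride from diacylglycerol, read 4.50 and 4.62 and then 6.06 and 6.30, a 3.08-fold rise. Cidec, which lets lipid droplets grow by fusion, rose 2.44-fold. Plin1, the droplet coat protein of fat cells, read 4.97 and 4.84 and then 5.99 and 5.35, a change of 0.77 ± 0.20 (adjusted p = 0.0427). Its call was lost without day 0 replicate 1 (0.83), day 0 replicate 2 (0.70), day 2 replicate 1 (0.45) or any 1 knockout array. Pnpla2, the first lipase of triglyceride breakdown, rose by 1.24 ± 0.29, with day 2 arrays at 8.86 and 7.86. Its call was lost without day 0 replicate 1 (1.32), day 0 replicate 2 (1.15) or day 2 replicate 1 (0.73). The droplet coat genes Plin3 and Plin4 changed by -0.69 ± 0.17 and -0.74 ± 0.18, and each lost its call without 3 of the 4 wild-type arrays, Plin3 at -0.76 to -0.46 and Plin4 at -0.84 to -0.46. Some other genes of fat cells were dim or not called: Adig and Cidea were dim on both days, Cd36 was dim on day 0 and read 3.75 and 3.95 on day 2, and Slc2a4, the insulin-regulated glucose transporter, read 4.19 to 4.35 on all 4 arrays. Lpl, lipoprotein lipase, changed by 0.60 ± 0.30 without a call.

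Of 10 adipokine genes, 2 were called higher and none lower, with a median change of 0.50. Agt, angiotensinogen, read 6.43 and 6.37 on day 0 and 8.86 and 8.47 on day 2, a 4.82-fold rise. Retn, resistin, rose 2.60-fold, from 4.57 and 4.22 to 5.77 and 5.78. Adipoq, adiponectin, was dim on day 0 at 3.44 and 3.35 and read 3.74 and 4.19 on day 2, which was not called (adjusted p = 0.0783), and Lep, leptin, was dim on both days. Angptl4 had 1 day 0 array at 9.49 and the other at 7.32, and its change of 1.71 ± 0.71 was not called. Of 12 fatty acid synthesis genes, 2 were called higher and 1 lower. Pcx, pyruvate carboxylase, read 6.88 and 6.47 on day 0 and 9.13 and 8.89 on day 2, a 5.04-fold rise. Fasn, fatty acid synthase, rose by 0.98 ± 0.20, and its call was lost without day 0 replicate 1 (0.71) or day 2 replicate 2 (0.84). Me1, malic enzyme, changed by -0.50 ± 0.12 and was not called without any 1 of the wild-type arrays (-0.57 to -0.42).

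Many targets of the glucocorticoid receptor rose by day 2. Of 20 measured, 12 were called higher and none lower, all 20 changes were above 0, and the median change was 1.55. Fam107a, a stress-induced actin-binding protein, read 4.38 and 4.48 on day 0 and 8.59 and 8.79 on day 2, a 19.2-fold rise (4.26, and 2.61 over the mean of its rows). Glul, glutamine synthetase, read 6.27 and 6.42 and then 9.77 and 10.04, an 11.8-fold rise. Fkbp5, the chaperone that feeds back on the receptor, read 6.11 and 5.86 and then 8.96 and 9.0, an 8.0-fold rise. In these 3 genes the gap between the days was many times the distance between replicates. Per1, a clock gene and receptor target, rose by 1.80 ± 0.35, and its call was lost without day 2 replicate 1 (1.45) or day 0 replicate 2 (1.42). Mt1, Sgk1 and Mt2 were not called (0.13, 0.03 and 0.71). Without 1 wild-type array, 9 to 13 members were called.

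Genes of the cAMP response were higher in part. Of 16 measured, 7 were called higher and 1, Ppargc1a, lower, with a median change of 0.71 and 4 to 7 called higher without any 1 wild-type array. Rgs2, a brake on G protein signalling, read 7.28 and 7.67 on day 0 and 10.60 and 10.28 on day 2, a 7.82-fold rise. Pde3b, the phosphodiesterase through which insulin lowers cAMP in fat cells, rose 3.14-fold. Pde4b, Pde4d and Pde10a, further phosphodiesterases named after their values were seen, rose by 1.12, 1.12 and 0.87. Nr4a1, an orphan nuclear receptor, read 7.70 and 7.01 on day 0 and 11.16 and 9.59 on day 2. Its arrays did not overlap, but its rise of 3.02 ± 0.57 lost its call without day 2 replicate 1 (2.23) or day 0 replicate 2 (2.68). The salt-inducible kinase gene Sik1 rose by 1.17 ± 0.22 and lost its call without the same arrays (0.94 and 1.05). Fos, Fosb, Atf3, Crem, Nr4a2, Nr4a3, Junb and Ptgs2 were not called. The palindrome TGACGTCA, the full cAMP response element, lay in the promoter window of 2.0% of all genes and of 0 of 13 members with a window.

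In the insulin and IGF axis, 5 of 17 measured genes were called higher and 2 lower. Irs1, the insulin receptor substrate of preadipocytes, read 8.88 and 8.02 on day 0 and 6.74 and 6.54 on day 2, a fall of 1.81 ± 0.31 (-1.14 over the mean of its rows). Irs2, its relative, rose by 0.92 ± 0.22, with day 2 arrays at 8.59 and 7.87. Igfbp4 and Igfbp3, which bind IGFs, rose by 1.55 ± 0.12 and 0.95 ± 0.17, and Pik3r1, the regulatory subunit of PI3-kinase, rose by 0.80 ± 0.13. Igfbp7 rose by 0.49 ± 0.12 and Igf1 fell by 0.65 ± 0.16. The calls of Irs2 and Igf1 were lost without day 0 replicate 1 (0.91 and -0.54) or day 0 replicate 2 (0.93 and -0.75), that of Irs2 also without day 2 replicate 1 (0.56), and that of Igf1 also without day 2 replicate 2 (-0.52). Igfbp7 was not called without any 1 of the wild-type arrays (0.42 to 0.55).

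In the list of acute phase and lipocalin genes, Lcn2, Orm3 and Orm2 had the largest rises after Pip among the called genes that were ranked. Most members of this list encode secreted proteins that the liver makes in inflammation and that fat cells make too. Pip, the gene with the largest rise, was counted in this list but is neither an acute phase protein nor a lipocalin. The counts and the median of the list include Pip. Of 13 measured, 9 were called higher and none lower, with a median change of 2.45 and 8 to 9 called without any 1 wild-type array. Pip, prolactin-inducible protein, was dim on day 0 at 3.38 and 2.93 and read 9.85 and 9.14 on day 2, at least 52.95-fold higher. Lcn2, lipocalin 2, which withholds iron carriers from bacteria, read 4.33 and 4.88 and then 9.81 and 9.79, a 36.7-fold rise (5.20 ± 0.17, adjusted p = 3.52e-06). The orosomucoid genes Orm3 and Orm2 rose 27.2-fold and 26.4-fold, from 4.96 and 4.95 to 10.12 and 9.32 and from 3.79 and 3.50 to 8.10 and 8.64. On both day 2 arrays these 4 genes stood more than 4 log2 units above day 0. The Orm genes, like other near-identical copies, may share probe signal, so their separate values are uncertain. On day 0 Orm2, though not dim by the rule, also lay near or below the lower quartiles of its arrays (3.79 and 3.74). The size of its fold is therefore uncertain. Il6, the cytokine that drives the hepatic response, was dim on day 0 at 2.41 and 2.85 and read 3.96 and 3.34 on day 2, which was not called (adjusted p = 0.105).

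C/EBP factors are the known activators of several of these promoters, so the C/EBP letters TTGCNNAA were looked for on both strands of the RefSeq promoter windows (build GRCm38.p6, 250 bases before to 50 after each start). They lay in 12.2% of all 27025 genes with a window and in 8 of 10 acute phase genes with a window, 4 of them among the 6 that were called higher. The other matches lay in Cp, Il6, Saa2 and Steap4, the members with a window that were not called. The matches of the 4 called genes are shown with their flanks because Lcn2, Orm2 and Orm3 had fitted rises above 26-fold and Saa3, serum amyloid A3, one of 6.30-fold. Capitals mark the match, and the strand is that of the gene.
Lcn2 (chr2:32387930-32387973, minus strand): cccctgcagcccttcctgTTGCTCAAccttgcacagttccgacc
Orm2 (chr4:63362311-63362354, plus strand): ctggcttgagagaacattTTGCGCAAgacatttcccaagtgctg
Orm3 (chr4:63356019-63356062, plus strand): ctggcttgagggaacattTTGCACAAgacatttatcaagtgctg
Saa3 (chr7:46715750-46715793, minus strand): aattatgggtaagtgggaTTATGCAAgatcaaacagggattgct
The match begins at base -120 from the start in Orm2 and at base -121 in Orm3. A match is a description of letters only.

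The interferon programme was lower on day 2. These genes answer type I interferon and encode antiviral proteins. Of 28 measured effectors, 25 were called lower and none higher, and the median change was -2.45. The mean level of the 28 was 7.59 and 7.99 on day 0 and 5.43 and 5.59 on day 2, and 23 to 24 were called lower without any 1 wild-type array. Oasl2, an oligoadenylate synthetase-like protein, read 9.38 and 9.57 on day 0 and 4.33 and 5.53 on day 2, a 23.4-fold fall. Usp18, which removes ISG15 from proteins and damps the receptor, read 9.17 and 9.91 and then 4.77 and 5.62, a 20.4-fold fall. Ifit1, which binds foreign RNA, read 9.44 and 10.10 and then 4.95 and 6.0, a 19.6-fold fall (-4.30 ± 0.32, adjusted p = 8.98e-05). Mx2, an antiviral GTPase, was dim on day 2 at 3.14 and 3.27 after 6.96 and 7.68, at least 11.31-fold lower. In all 4 genes the day 0 arrays stood more than 3 log2 units above the day 2 arrays. Ifit3, Oas3 and Oasl1 were the members not called; Ifit3, for example, read 6.28 and 5.87 and then 6.04 and 5.92. Families with close copies here, such as Ifit3 and Ifit3b, Mx and Gbp, may share probe signal.

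Signalling genes of this pathway were lower in part. Of 15 sensors and signal carriers, 9 were called lower and none higher, with a median change of -1.24 and 8 to 9 called lower without any 1 wild-type array. Irf9 read 8.47 and 8.85 on day 0 and 6.24 and 6.22 on day 2, and Stat2 read 8.61 and 9.02 and then 6.37 and 6.48, falls of 5.38-fold and 5.24-fold. Irf7, the factor that amplifies interferon production, fell 4.54-fold, and Tlr3, the endosomal sensor of double-stranded RNA, fell 4.50-fold. The receptor subunits Ifnar1, Ifnar2 and Ifngr1, the sensor adaptor Mavs, Irf3 and Ifnb1 were not called. Of 10 antigen presentation genes, 5 were called lower and none higher, with a median change of -0.61. Psmb10, an immunoproteasome subunit, fell 2.88-fold, from 8.71 and 8.88 to 6.97 and 7.57. Tapbp and Tap1, which load peptide in the endoplasmic reticulum, fell by 1.04 ± 0.14 and 0.97 ± 0.13, and B2m, the light chain of class I molecules, fell by 0.79 ± 0.12, from 12.47 and 12.42 to 11.67 and 11.65. Erap1, which trims the peptides, fell by 0.75 ± 0.13. Without any 1 wild-type array 5 members were called lower. Over the mean of its rows Tapbp changed by -0.64 and was not called, which left 4 members. The genes H2-K1, Nlrc5, Psmb8, Psmb9 and Tap2 were not called.

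The core of the interferon-stimulated response element, GAAANNGAA on either strand, lay in the promoter windows of 9.8% of all genes. It lay in 12 of 20 interferon effectors with a window, among them 10 of the 17 called lower, in 3 of 13 sensors and signalling genes, and in 2 of 8 antigen presentation genes. The 4 promoters shown are those of Ifit1, one of the deepest falls, and of 3 called effectors of other kinds, chosen for their matches: Isg15, a ubiquitin-like protein (4.25-fold lower), Gbp7, a guanylate-binding protein (11.2-fold lower), and Rsad2, viperin (2.56-fold lower). Capitals mark the core in the gene's own direction, read as GAAANNGAA or as its reverse TTCNNTTTC, and matches may overlap.
Ifit1 (chr19:34640762-34640831, plus strand): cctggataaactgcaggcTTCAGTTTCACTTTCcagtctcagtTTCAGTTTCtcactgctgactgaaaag
Isg15 (chr4:156200858-156200914, minus strand): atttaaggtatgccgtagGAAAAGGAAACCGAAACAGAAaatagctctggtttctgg
Gbp7 (chr3:142530266-142530310, plus strand): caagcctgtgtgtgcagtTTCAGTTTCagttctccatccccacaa
Rsad2 (chr12:26456545-26456589, minus strand): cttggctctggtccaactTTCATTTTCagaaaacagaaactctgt
Ifit1 and Isg15 hold 3 matches each in the stretch shown, and Gbp7 and Rsad2 hold 1 each. The window of Oasl2, the effector with the largest fitted fall, holds none.

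Across the 33 gene groups, then, rises were most frequent among acute phase genes and glucocorticoid targets, and falls among interferon genes, proteases and matrix genes. The groups were chosen with earlier results of these arrays known.

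**Figure D2:**
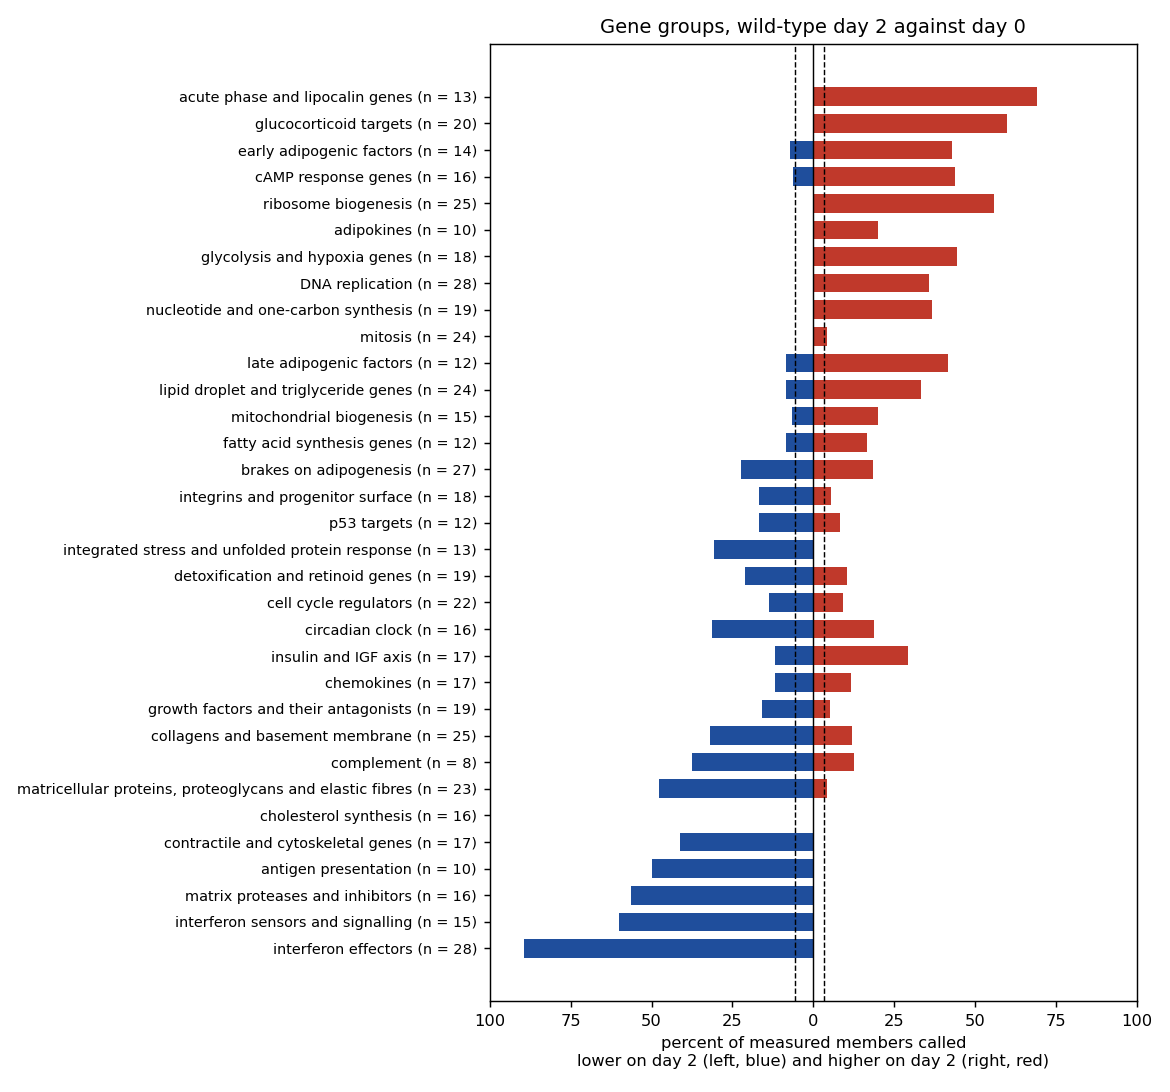
Percent of the measured members of each of 33 gene groups that were called lower (blue, left) or higher (red, right) on day 2 in wild-type cells, ordered by the median change, with dashed lines at the 3.44 percent (higher) and 5.64 percent (lower) of all genes. Interferon effectors reach 25 of 28 called lower and acute phase genes, with Pip counted among them, 9 of 13 called higher.

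Several collagens and matrix proteins were lower, and 3 collagens of basement membranes were higher. Of 25 collagen and basement membrane genes, 3 were called higher and 8 lower, with a median change of -0.18. Col1a1 and Col3a1, chains of the fibrillar collagens I and III, read 12.08 and 11.78 and 11.29 and 10.95 on day 0 and 10.79 and 10.66 and 9.84 and 10.15 on day 2, falls of 1.21 ± 0.16 and 1.12 ± 0.18. Col8a1 and Col11a1 fell by 1.44 ± 0.25 and 1.05 ± 0.26. The 3 rises were Col4a1 (8.55 and 8.38 to 10.13 and 10.23, 3.28-fold), Col4a2 (3.0-fold) and Col18a1 (2.18-fold), all collagens of basement membranes. Without 1 wild-type array, 3 genes were called higher each time and 3 to 7 lower. Col11a1 lost its call without day 0 replicate 1 (-0.73), day 2 replicate 1 (-1.03) or day 2 replicate 2 (-1.07), and Col8a1 without day 0 replicate 1 (-1.22) or day 2 replicate 2 (-1.26).

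Of 23 matricellular proteins, proteoglycans and elastic fibre genes, 1 was called higher and 11 lower, with a median change of -0.37 and 7 to 9 called lower without any 1 wild-type array. Thbs2, thrombospondin 2, read 11.06 and 10.81 and then 8.30 and 8.96, a 4.95-fold fall. Mfap5, a microfibril protein, fell 4.45-fold, and Ogn, the proteoglycan osteoglycin, fell 4.12-fold, from 11.85 and 11.61 to 9.71 and 9.65. Thbs1 read 10.48 and 9.32 on day 0 and 8.15 and 7.89 on day 2. Its fall of 1.88 ± 0.42 lost its call without day 0 replicate 1 (-1.30), day 2 replicate 1 (-2.0) or day 2 replicate 2 (-1.75). Lum, lumican, dim on day 0 at 3.71 and 3.66, was at least 1.88-fold higher.

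Of 16 matrix proteases and inhibitors, 9 were called lower and none higher, with a median change of -0.86 and 8 to 9 called lower without any 1 wild-type array. Mmp3 and Mmp13, stromelysin and collagenase, read 7.14 and 7.08 and 7.54 and 7.22 on day 0 and 4.17 and 4.46 and 4.90 and 5.14 on day 2, falls of 6.97-fold and 5.12-fold. Plat, tissue plasminogen activator, fell 4.49-fold, from 9.85 and 9.68 to 7.18 and 8.01, and Timp3, an inhibitor bound to the matrix, fell 3.65-fold.

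Some contractile genes fell too. Of 17 contractile and cytoskeletal genes, 7 were called lower and none higher, with a median change of -0.56, and 3 to 4 were called lower without any 1 wild-type array. Cnn2, calponin 2, read 10.67 and 10.54 on day 0 and 9.30 and 9.48 on day 2, a fall of 1.22 ± 0.15. Tpm1, a tropomyosin, fell by 1.41 ± 0.24, Acta2, smooth muscle actin, by 1.40 ± 0.33 and Myl9, a myosin light chain, by 0.87 ± 0.19. The call of Acta2 was lost without any 1 of the wild-type arrays (-1.66 to -1.13), that of Myl9 without day 0 replicate 1 (-0.71) or day 2 replicate 1 (-0.64), and that of Tpm1 without day 2 replicate 2 (-1.20). The CArG box, to which serum response factor binds in contractile genes, lay in 1.8% of all promoter windows by gene and in 4 of 15 members, among them 2 of the 6 called lower, Cnn2 and Myl9. That of Myl9 is shown on the plus strand with the box in capitals.
Myl9 (chr2:156775285-156775330, plus strand): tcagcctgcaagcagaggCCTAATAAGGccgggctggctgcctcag

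Surface receptors of the fibroblast fell in part. Of 18 integrins and progenitor surface genes, 1 was called higher and 3 lower. Itga11, the collagen-binding integrin α11, read 7.21 and 7.34 on day 0 and 5.40 and 5.26 on day 2, a 3.86-fold fall. Pdgfrb, the PDGF receptor β, fell 3.47-fold, from 10.30 and 10.21 to 8.51 and 8.41, and Itgb5 fell 2.74-fold. Itga5, the fibronectin receptor chain, rose by 0.55 ± 0.14, a call that was lost without any 1 of the wild-type arrays (0.51 to 0.59). Among 19 growth factors and antagonists, Sfrp2, a secreted Wnt antagonist, Grem1, a BMP antagonist, and Tgfb3 were called lower, by 2.87-fold, 2.45-fold and 2.43-fold (Sfrp2 by -0.94 on the log2 scale over the mean of its rows), and Fst, follistatin, was called higher (1.09 ± 0.27). The Fst call was lost without day 0 replicate 2 (0.72), day 2 replicate 1 (1.06) or day 2 replicate 2 (1.12).

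**Figure D3:**
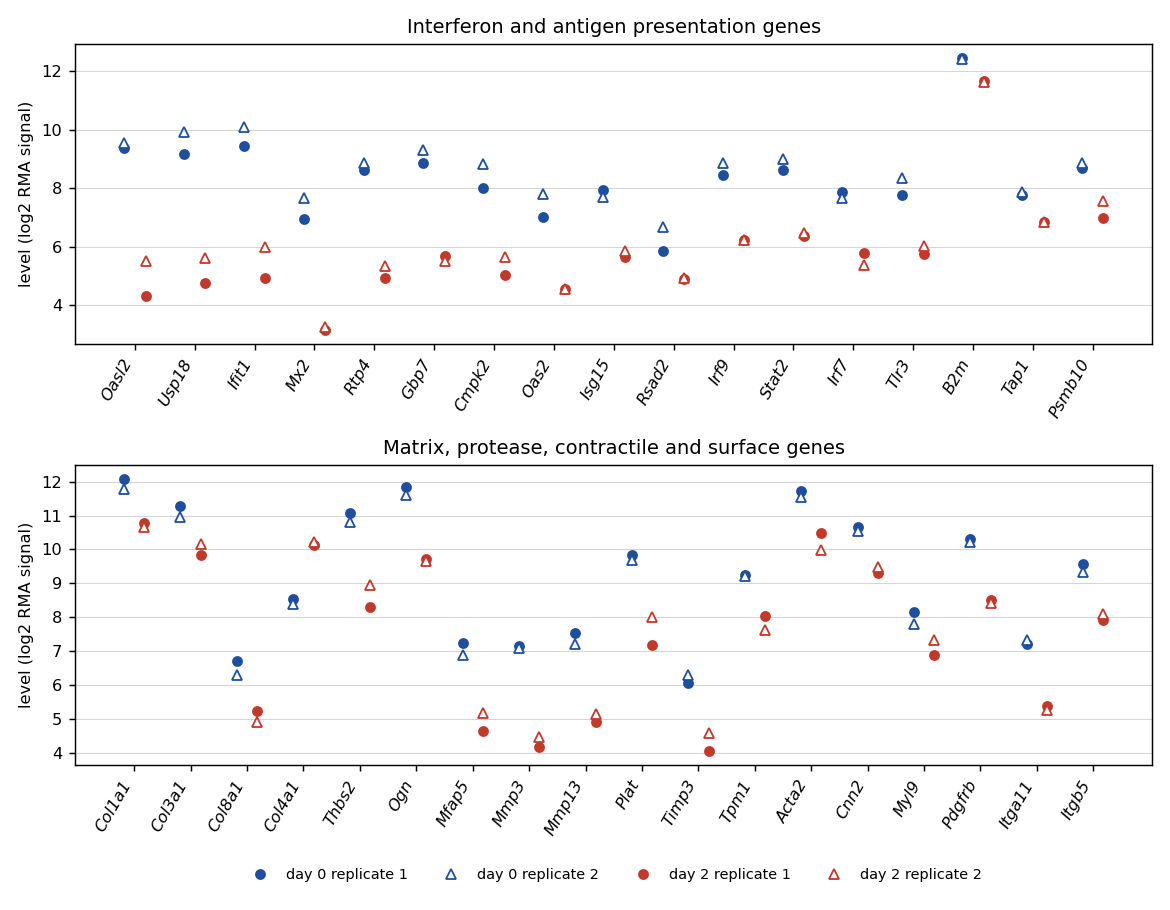
Level (log2 RMA signal, vertical axes) of interferon and antigen presentation genes (top) and of matrix, protease, contractile and surface genes (bottom) on each wild-type array, day 0 in blue and day 2 in red, circles for replicate 1 and triangles for replicate 2. Every gene shown lies lower on both day 2 arrays than on both day 0 arrays except Col4a1, which lies higher at 10.13 and 10.23.

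Part of the machinery of DNA replication rose by day 2. Of 28 measured genes, 10 were called higher and none lower, 26 changes were above 0, and the median change was 0.46. Pcna, the sliding clamp of DNA polymerase, read 8.12 and 8.33 on day 0 and 9.91 and 9.76 on day 2, a 3.05-fold rise. Rrm2, a subunit of ribonucleotide reductase, rose by 1.23 ± 0.21, Cdc6, which licenses origins, by 1.12 ± 0.20 and the helicase subunit gene Mcm7 by 0.79 ± 0.18. Without day 0 replicate 1 the called members numbered 2, without day 2 replicate 1 or day 2 replicate 2 they numbered 4, and without day 0 replicate 2 they numbered 7. With the 4 wild-type arrays alone they numbered 4. Over the mean of its rows Rrm2 changed by 0.63 and was not called. Cdc6 lost its call without day 0 replicate 1 (0.91) or day 2 replicate 2 (1.08), and Mcm7 without day 0 replicate 1 (0.64) or day 2 replicate 1 (0.61).

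Genes of mitosis showed little separation of the days, and the day 0 arrays lay apart from each other. Of 24 measured, Top2a, topoisomerase II, was the member called higher (6.49 and 7.38 to 9.68 and 9.28, 5.83-fold), none was called lower, and the median change was 0.38. The mean level of the group was 6.04 on day 0 replicate 1 and 6.87 on day 0 replicate 2, beside 7.03 and 6.85 on day 2. Mki67, the Ki-67 proliferation antigen, read 7.17 and 8.09 and then 7.90 and 7.52, and Ccna2, cyclin A2, read 7.12 and 8.31 and then 8.42 and 8.04. Day 0 replicate 1 was thus low and day 0 replicate 2 within reach of day 2. Without day 0 replicate 2, 6 members were called higher and the median change was 0.90, and without day 0 replicate 1 those values were 1 and 0.06.

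Cholesterol synthesis genes also lay apart between the day 0 arrays, but here day 0 replicate 2, not replicate 1, stood away from day 2. None of 16 was called in either direction by limma with Benjamini-Hochberg adjustment, and the median change was -0.41. Their mean level was 7.52 on day 0 replicate 1 and 8.42 on day 0 replicate 2, beside 7.54 and 7.71 on day 2. Fdps, farnesyl diphosphate synthase, read 7.41 and 9.13 on day 0 and 7.38 and 7.54 on day 2. Without day 0 replicate 1, 4 members were called lower and the median was -0.90. Without day 0 replicate 2, none was called and the median was 0.05. Day 0 replicate 2 is 1 of the 2 wild-type arrays whose labels disagree.

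**Figure D4:**
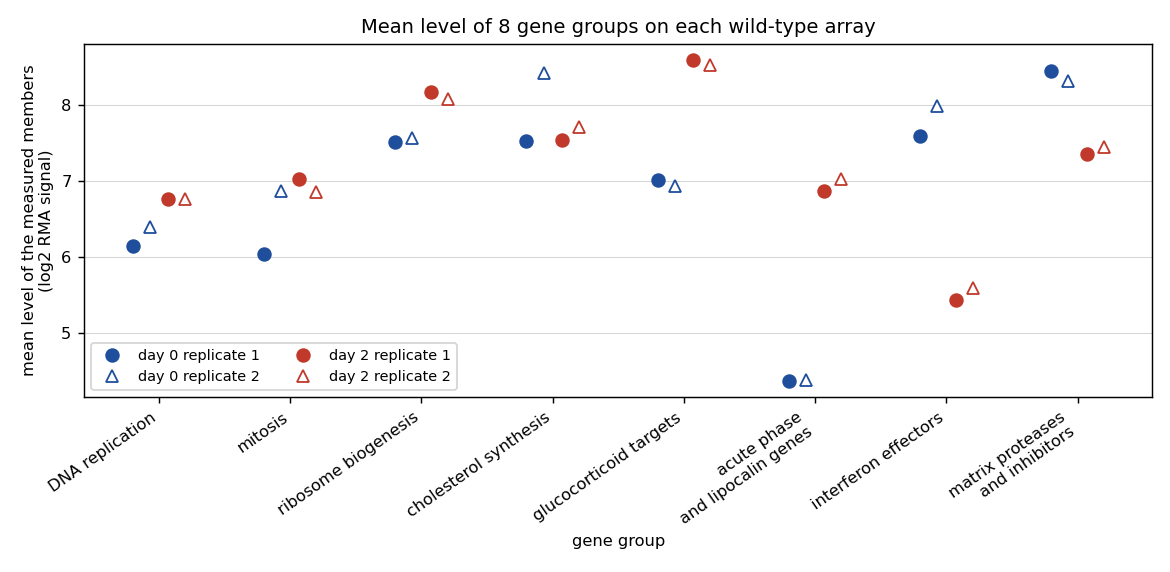
Mean level (log2 RMA signal, vertical axis) of the measured members of 8 gene groups on each wild-type array, day 0 in blue and day 2 in red, circles for replicate 1 and triangles for replicate 2. Replication genes, glucocorticoid targets and interferon effectors separate the days, whereas mitosis and cholesterol synthesis genes lie apart between the day 0 arrays, at 6.04 and 6.87 and at 7.52 and 8.42.

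Of 22 cell cycle regulators, 2 were called higher and 3 lower. Myc, the growth-promoting factor, read 7.52 and 7.44 on day 0 and 10.22 and 9.44 on day 2, a 5.11-fold rise, and Ccne1, cyclin E1, rose by 0.70 ± 0.12. The G1 genes Ccnd1, Ccnd2 and Cdk6 fell by 0.74 ± 0.18, 0.73 ± 0.13 and 0.64 ± 0.13. None of these 3 falls was called without day 0 replicate 2 (-0.65, -0.64 and -0.62). The call of Ccnd1 was also lost without day 0 replicate 1 (-0.83) or day 2 replicate 1 (-0.52), that of Ccnd2 without day 2 replicate 2 (-0.69), and that of Cdk6 without day 0 replicate 1 (-0.66) or day 2 replicate 2 (-0.52). Of 12 p53 targets, Sesn1 was called higher (0.82 ± 0.13), and Ccng1 and Eda2r were called lower (-0.64 ± 0.14 and -1.01 ± 0.22). The latter 2 calls were lost without day 0 replicate 2 (-0.54 and -0.69), day 2 replicate 1 (-0.66 and -0.98) or day 2 replicate 2 (-0.61 and -1.04).

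Promoter letters known from cell cycle genes were counted in both groups. The E2F letters TTTCCCGC or TTTGGCGC, on either strand, lay in 1.8% of all genes with a window, in 8 of 24 replication genes, among them 5 of the 9 called higher with a window, and in 0 of 19 mitosis genes. The cell cycle homology region letters, TTTGAA or TTCGAA on either strand, lay in 21.7% of all genes, in 16 of 19 mitosis genes and in 5 of 24 replication genes. Cdc6 and Mcm6, called higher by 2.18-fold and 1.44-fold, are shown for the E2F letters and Top2a for the homology region, with matches in capitals. These genes were chosen for their matches.
Cdc6 (chr11:98907995-98908038, plus strand): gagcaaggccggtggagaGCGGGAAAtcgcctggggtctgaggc
Mcm6 (chr1:128359727-128359770, minus strand): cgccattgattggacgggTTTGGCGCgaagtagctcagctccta
Top2a (chr11:99024286-99024347, minus strand): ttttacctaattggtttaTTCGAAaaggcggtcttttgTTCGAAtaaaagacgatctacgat
Top2a holds 2 matches in the stretch shown.

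Many genes that build ribosomes rose. Of 25 measured, 14 were called higher and none lower, all 25 changes were above 0 with a median of 0.60, and 9 to 10 were called higher without any 1 wild-type array. Nop56, a core protein of small nucleolar particles, read 8.80 and 8.93 on day 0 and 10.01 and 9.68 on day 2, a 1.97-fold rise, and Ddx21, a nucleolar helicase, rose 1.92-fold (0.94, and 0.62 over the mean of its rows). Of 19 genes of nucleotide and one-carbon synthesis, 7 were called higher and none lower, with a median change of 0.45 and 4 to 6 called without any 1 wild-type array. Ctps, CTP synthase, read 6.92 and 6.38 and then 8.42 and 7.99, a 2.94-fold rise. Mthfd2, the mitochondrial folate enzyme, and Dhodh, of pyrimidine synthesis, rose by 1.03 ± 0.18 and 0.81 ± 0.14.

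Of 18 glycolysis and hypoxia genes, 8 were called higher and none lower, with a median change of 0.50 and 5 to 9 called without any 1 wild-type array. Vegfa, the vascular growth factor, read 8.52 and 8.36 and then 10.39 and 9.92, a 3.29-fold rise. The phosphofructokinase genes Pfkl and Pfkp rose 2.53-fold and 2.20-fold, and Egln3, an oxygen sensor, rose 2.28-fold. Of 15 mitochondrial biogenesis genes, Cycs, cytochrome c, Hspd1, a matrix chaperone, and Tomm20, an import receptor, were called higher (0.92 ± 0.18, 0.67 ± 0.15 and 0.52 ± 0.12), and Ppargc1a was called lower. All 3 rises lost their calls without day 0 replicate 1 (0.82, 0.64 and 0.44), Hspd1 and Tomm20 also without day 0 replicate 2 (0.70 and 0.60) or day 2 replicate 1 (0.55 and 0.55), and Cycs and Tomm20 also without day 2 replicate 2 (0.74 and 0.48).

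Clock genes moved both ways. Of 16 measured, 3 were called higher and 5 lower. Dbp, an output factor driven by CLOCK and BMAL1, read 8.41 and 8.59 on day 0 and 6.88 and 6.83 on day 2, a 3.12-fold fall, and Nr1d2, a repressor of Arntl, fell 2.17-fold. Tef and Per3 fell by 0.77 ± 0.15 and 0.76 ± 0.14, and Bhlhe41 by 0.99 ± 0.26. Arntl, which encodes BMAL1, rose by 0.68 ± 0.14, beside the rises of Per1 and Nfil3 given above. Without day 0 replicate 2 the calls of Arntl (0.62), Per3 (-0.65), Tef (-0.76) and Bhlhe41 (-0.80) were lost, as were those of Per1 and Nfil3, and 2 members were called in all. Arntl and Per3 also lost theirs without day 2 replicate 2 (0.56 and -0.63), Bhlhe41 without day 0 replicate 1 (-1.18) or day 2 replicate 1 (-0.52), and Tef without any 1 of the wild-type arrays (-0.79 to -0.75). Over the mean of its rows Tef changed by -0.28 without a call.

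Chemokines moved in both directions. Of 17 measured, 2 were called higher and 2 lower. Cxcl13, the B cell attractant, read 4.76 and 4.62 on day 0 and 8.58 and 8.49 on day 2, a 14.4-fold rise, and Cx3cl1, fractalkine, rose 3.21-fold. Ccl2, the monocyte attractant, fell 2.57-fold, from 8.41 and 8.58 to 6.95 and 7.31, and Ccl7 fell 2.01-fold, a call that was lost without day 0 replicate 2 (-0.75) or day 2 replicate 1 (-0.93). Of 8 complement genes, C1s2, a C1 protease gene dim on day 2, was at least 4.45-fold lower, at 6.05 and 5.90 and then 3.79 and 3.20. C1ra fell by 1.0 ± 0.18 and Serping1, the C1 inhibitor, by 1.49 ± 0.30, while C4b rose by 0.72 ± 0.17. The call of Serping1 was lost without day 0 replicate 1 (-1.18) or day 2 replicate 1 (-1.14), and that of C4b without day 0 replicate 1 (0.75), day 0 replicate 2 (0.69) or day 2 replicate 2 (0.53).

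Of 13 genes of the integrated stress and unfolded protein responses, 4 were called lower and none higher: Herpud1, of endoplasmic reticulum degradation (2.33-fold), Chac1, a glutathione-degrading enzyme (2.16-fold), Ddit3 (2.12-fold) and Slc7a11, the cystine transporter, dim on day 2 (at least 1.23-fold; -0.49 and not called over the mean of its rows). Chac1 lost its call without day 0 replicate 1 (-0.94) or day 2 replicate 2 (-0.88). Of 19 detoxification and retinoid genes, 2 were called higher and 4 lower. Ephx1, microsomal epoxide hydrolase, read 9.93 and 10.06 on day 0 and 8.13 and 8.30 on day 2, a 3.44-fold fall. Gstt1, a glutathione transferase, Hmox1, heme oxygenase, and Adh7 fell 2.46-fold, 2.13-fold and 1.72-fold. Cyp1b1, a cytochrome P450, rose by 0.75 ± 0.12, and Adh1 by 0.73 ± 0.19, a call that was lost without day 0 replicate 1 (0.79), day 0 replicate 2 (0.67) or day 2 replicate 2 (0.51), and over the mean of its rows (0.28).

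Ranked by size over all genes, the 15 highest changes among called genes were those of Pip, Lcn2, Orm3, Orm2, Fam107a, Cxcl13, Glul, Ceacam1, Nr4a1, Fkbp5, Rgs2, Prg4, Cebpd, Fabp4 and Fmo1. Outside the groups, Ceacam1, an adhesion molecule, rose 8.25-fold, Prg4, lubricin, read 4.18 and 4.25 and then 7.0 and 7.33 (7.74-fold), and Fmo1, a flavin monooxygenase, rose 6.49-fold. The 15 lowest were Oasl2, Usp18, Ifit1, Mx2, Apol9b, Rtp4, Gbp7, Iigp1, Cdsn, Igtp, Ddx60, Irgm2, Cmpk2, Trim30d and Itgbl1. Iigp1, Igtp and Irgm2, GTPases induced by interferon, fell 10.9-fold, 9.62-fold and 9.09-fold. Ddx60, a helicase dim on day 2, was at least 6.06-fold lower. Outside immune genes, Cdsn, corneodesmosin, read 9.23 and 9.29 and then 5.94 and 5.95 (9.92-fold lower), and Itgbl1, an integrin β-like protein, read 7.59 on both day 0 arrays and 4.73 and 4.55 on day 2 (7.74-fold lower).

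The same 2 days in MED1-KO cells gave changes of the same sign for 1959 of the 2012 genes called in wild-type cells. The difference of the changes, wild-type minus knockout, was tested in the same fit. No gene was called by limma (0 percent of 22180), and the smallest adjusted p was 0.103. The standard error of this difference was larger than that of the wild-type change, for Pparg 0.18 beside 0.13. The lack of a call therefore does not show equal responses. An unadjusted limma p below 0.05 was found for 941 genes, a share of all genes smaller than 0.05 itself. Among genes called in wild-type cells, the 6 with the highest and the 6 with the lowest moderated t of that difference are given for both genotypes. By size, Cxcl13 (2.07) and Fabp4 (1.91) would come before some of the first 6, and Ddx60 (-1.82) and Ifit1 (-1.76) before some of the others. Pip changed by 6.33 ± 0.37 in wild-type and 1.92 ± 0.37 in knockout cells. Pparg changed by 2.02 ± 0.13 and 0.80 ± 0.13 (difference 1.22 ± 0.18, adjusted p = 0.184), and it read 5.02 and 5.10 on day 0 and 5.84 and 5.87 on day 2 in knockout cells. Dgat2 changed by 1.62 ± 0.13 and 0.15 ± 0.13 (adjusted p = 0.105), Cth, a cysteine-producing enzyme, by 1.46 ± 0.15 and -0.08 ± 0.15, and Agt by 2.27 ± 0.19 and 0.66 ± 0.19. Igfbp3 moved in opposite directions, by 0.95 ± 0.17 in wild-type and -1.0 ± 0.17 in knockout cells (adjusted p = 0.103).

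At the other end, Mmp13 changed by -2.36 ± 0.16 in wild-type and -0.43 ± 0.16 in knockout cells (adjusted p = 0.103), and it was already at 4.43 and 4.64 on knockout day 0. Oas2 changed by -2.86 ± 0.24 and -0.39 ± 0.24 (adjusted p = 0.161). Rtp4, Apol9b, Mx2 and Iigp1 changed by -3.62, -3.88, -4.12 and -3.44 in wild-type and by -1.93, -2.07, -2.36 and -1.92 in knockout cells, with adjusted p from 0.163 to 0.326. Rtp4, Apol9b, Mx2, Iigp1 and Oas2 all read lower in knockout than in wild-type cells on day 0. Rtp4 read 6.88 and 7.04 there, beside 8.64 and 8.87, and Mx2 5.28 and 5.34, beside 6.96 and 7.68. On day 2 Rtp4 read 5.11 and 4.95 in knockout and 4.92 and 5.35 in wild-type cells. Mx2 read 2.94 and 2.96 in knockout and 3.14 and 3.27 in wild-type cells on that day. Over the interferon effectors, the median change was -2.45 in wild-type and -1.44 in knockout cells, and none of the 28 differences was called. The corresponding medians were 1.55 and 1.49 for glucocorticoid targets, 0.71 and 0.77 for cAMP response genes, and 1.03 and 0.03 for the 6 adipocyte markers. Differences of whole lists between the genotypes were not tested, and no single member was called, so these medians are a description only.

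**Figure D5:**
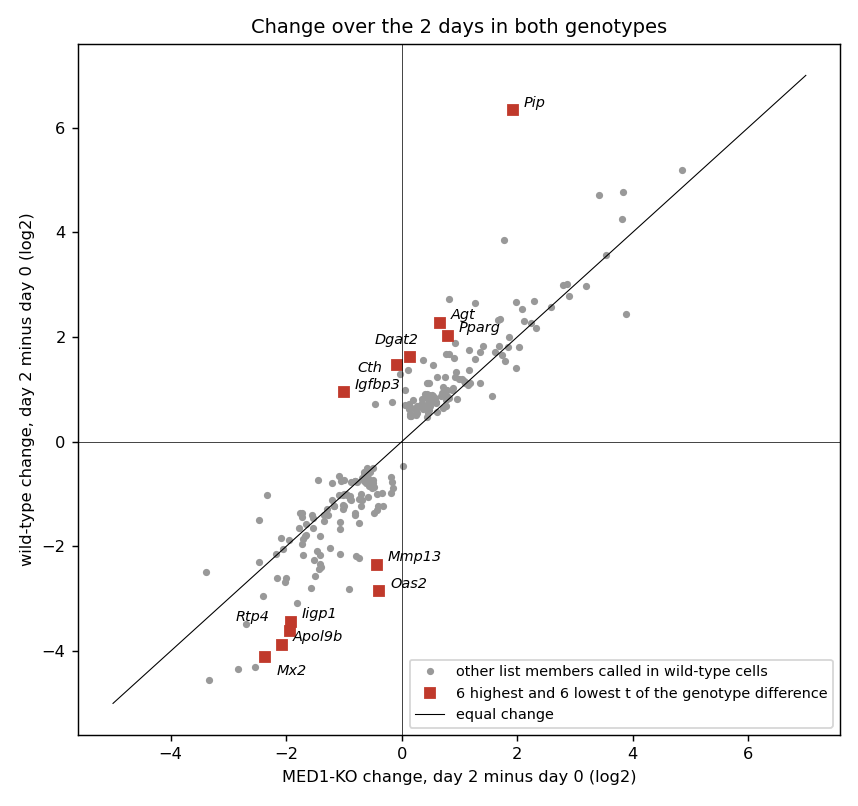
Change from day 0 to day 2 (log2) in wild-type cells (vertical) against MED1-KO cells (horizontal) for the list members called in wild-type cells (grey), with the 6 genes of highest and the 6 of lowest moderated t for the genotype difference in red and the line of equal change. Igfbp3 lies at 0.95 and -1.0, Pip at 6.33 and 1.92, and none of the differences was called.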

How the data were processed

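Affymetrix whole-transcript arrays measured the RNA of 3T3-L1 cells. Trizol extracts were prepared with the GeneChip WT PLUS kit, per the labels' protocols. The authors deposited log2 values; RMA and Transcriptome Analysis Console are the tools listed in the submitters' processing notes. RMA corrects background and brings arrays to one distribution, so a shift shared by all genes would not show. Which genome build lay behind the probes is not given in the sources used here. Median values were 4.69 to 4.79 on the 8 cell arrays. Array values have no read depth, and the number of arrays limits the precision.

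Of 41345 transcript clusters, 23521 had 1 gene symbol in the platform annotation, 1814 several and 16010 none. For 1082 genes with more than 1 such cluster, the one with the highest mean on 19 arrays was taken. No dim gene was left out, and 4678 genes were dim on both days. A fold against a dim day was taken against the mean lower quartile of its arrays.

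Differences were tested on the log2 values by lmFit and eBayes of limma 3.58.1 under R 4.3.3 (two-sided, 8 arrays in 4 groups by title). The fit had 4 residual degrees of freedom. On simulated data it recovered 65% of 2-fold and 96% of 4-fold changes of wild-type cells among 22180 genes. There only a small share of the genes was changed, on wild-type day 2 alone, and the noise of the arrays was independent. These percentages therefore need not hold for the real comparison. Of 621 genes in 33 lists, 579 had a row of their own. The members and lists were chosen with earlier results of these data known, so lists carry no test. Named genes were the adipogenic factors, Med1, Dlk1, Gata2, Gata3, Fabp4 and Adipoq, the 15 highest and 15 lowest changes among called, non-overlapping genes (predicted, unnamed, small RNA and olfactory receptor genes left out), up to 4 called members per list and direction (all where 5 or fewer), and the 6 highest and 6 lowest moderated t of the genotype difference among called genes. Uncalled list members could be named with their values, and marker genes and genes shown for their promoters stand outside the rule. The alternatives tried were a replicate block, other variance moderation, quantile normalization, a filter on dim genes, cluster means, other sets of arrays, the day by source field, a fold threshold and leaving out each array. Promoter windows come from RefSeq (GRCm38.p6).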

Additional observations from a re-analysis of the deposited data

How the results depend on the processing

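The count of genes called between wild-type day 2 and day 0, 2012 as reported, was 1929 to 2469 with trend and robust moderation, quantile normalization, the filter on dim genes, cluster means or all 19 arrays, and 1367 with the 4 wild-type arrays alone. The 2469 came from the 11727 genes that the filter kept. Of the 2012 genes, 1994 were called with trend and robust moderation, 1822 with quantile normalization and 1758 with all 19 arrays. The 4 wild-type arrays alone called 1345 of them. The count was 0 with the day from the source field and 674 with a 2-fold threshold added. Leaving out each of the 8 arrays gave 1143 to 1714. For the genotype difference, leaving out an array gave 0 to 2 called genes. The replicate numbers were not taken to pair the samples, since no label says what they share: the deviations of same-numbered arrays correlated at 0.03 between wild-type day 0 and day 2 and at 0.13 to 0.35 between the other groups, and the third principal component separated the replicate numbers. A fit with the replicate block called 2555 genes, 2004 of them among those 2012, and 1 gene for the genotype difference, and it also called Dlk1, Klf9, Fosl2 and Adipoq. With cluster means, the calls of Adh1 (0.28), Ebf2 (0.29), Rrm2 (0.63), Slc7a11 (-0.49), Tapbp (-0.64) and Tef (-0.28) were lost. With the 4 wild-type arrays alone, without a knockout array or with quantile normalization, 21 named genes lost their calls, all 21 of which also lost them without a wild-type array. On the 2 arrays with agreeing labels, 13 of 161 called named genes had changes over 1.5 times smaller, among them Nr4a1 (1.89), Cx3cl1 (1.10) and Per1 (1.06). By the source field, a count chosen after seeing the data, the sign turned for 101 of the 161. Of the 6 genes set for that test it turned for Pparg (-0.16), Cebpa (-0.03), Fabp4 (-0.27), Fkbp5 (-0.10) and Ifit1 (0.86). It also turned with quantile normalization for Klf15 (-0.01) and with cluster means for Gata3 (-0.27). Leaving out arrays gave changes that crossed 0 for Med1 (-0.08 to 0.20), Creb1 (-0.04 to 0.09), Klf4 (-0.46 to 0.18), Nr1h3 (-0.26 to 0.03), Gata3 (-0.02 to 0.06), Egr2 (-0.66 to 1.05), Klf15 (-0.14 to 0.23) and Ebf1 (-0.40 to 0.05), none of them called. The cause of these changes was not tested, other than that a left-out array leaves 1 array in its group, which is assumed to vary like the others.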
